A study of Mus musculus with 92 samples.

Results

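The transcripts described here are those of transaldolase (Taldo1) and of the other enzymes of the pentose phosphate pathway, namely transketolase (Tkt), glucose-6-phosphate dehydrogenase (G6pdx), phosphogluconate dehydrogenase (Pgd), phosphogluconolactonase (Pgls), ribose phosphate isomerase (Rpia) and ribulose phosphate epimerase (Rpe). Members were the bead array probes annotated to these 7 gene symbols, and the question was whether the lower Taldo1 signal of G93A-SOD1 mice is shared by the rest of the pathway. A named probe was found for 5 of the 7 genes, which gave 6 probes of the 24613 on the array. Taldo1, Pgls, Rpia and Rpe had 1 probe each and Tkt had 2. G6pdx and Pgd had no named probe and were not analysed here. Taldo1 was chosen because its signal was known to be lower in G93A-SOD1 samples of these same data, so its differences between genotypes are given as a description, with no test.

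G93A-SOD1 mice carry a transgene for human superoxide dismutase 1 with the G93A substitution, under the human gene's own promoter, and are a model of amyotrophic lateral sclerosis. B6.Cg-Tg(G93A-SOD1)1Gur/J mice were set against their wild type littermates at the ages of 70 and 100 days. RNA came from lumbar spinal cord, from the left tibialis anterior muscle and from whole blood depleted of globin mRNA. The 3 tissues, 2 ages and 2 genotypes gave 12 groups and 92 arrays, with 8 arrays in each group except for 7 in the wild type groups of 100 days and in G93A-SOD1 muscle of 100 days. The labels do not say whether replicates of a group came from separate mice, so p-values measure the spread between these samples, which may be technical. In spinal cord, 5 arrays stood apart. Of these, 2 had a low median in the authors' deposited series values and few detected probes. These dim arrays were G93A-SOD1 of 70 days, replicate 1, and wild type of 100 days, replicate 5. The other 3 carried muscle transcripts (wild type of 70 days, replicates 3 and 5, and G93A-SOD1 of 100 days, replicate 8). In blood, 1 array (wild type of 70 days, replicate 6) stood apart by its bright median. All of these are bulk samples, in which fewer cells of a type and less RNA per cell cannot be told apart.

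The pentose phosphate pathway branches from glycolysis at glucose 6-phosphate. Its oxidative branch, run by G6pdx, Pgls and Pgd, yields NADPH, the reductant that keeps glutathione and thioredoxin reduced and supplies fatty acid synthesis. Its non-oxidative branch, run by Rpia, Rpe, Tkt and Taldo1, interconverts sugar phosphates, which supplies ribose for nucleotides and returns carbon to glycolysis. Taldo1 and Tkt are the carbon-transfer enzymes of this branch, and red blood cells depend on the pathway for their NADPH.

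The genes lie apart in the genome. In GRCm38.p6, Taldo1 occupies chr7:141392160-141402976, Tkt chr14:30549131-30574724, Pgls chr8:71592184-71596267, Rpia chr6:70765720-70792175 and Rpe chr1:66700797-66719805. The promoters of both carbon-transfer enzymes are shown because Taldo1 was the member that was lower and Tkt the member that acts on the same sugar phosphates and did not pass the test in any comparison. Each window is the RefSeq sequence of GRCm38.p6 from 250 bases before to 50 bases after the annotated start, 300 bases on the plus strand, at chr7:141391910-141392209 for Taldo1 and chr14:30548881-30549180 for Tkt. Capitals mark GGGCGG, the core of the GC box, on either strand.
Taldo1: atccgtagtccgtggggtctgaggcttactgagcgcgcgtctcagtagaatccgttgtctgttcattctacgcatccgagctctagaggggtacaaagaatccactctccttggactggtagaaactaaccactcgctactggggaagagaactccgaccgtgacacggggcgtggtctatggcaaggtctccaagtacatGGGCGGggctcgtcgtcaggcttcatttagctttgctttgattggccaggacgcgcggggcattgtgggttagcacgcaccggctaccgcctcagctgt
Tkt: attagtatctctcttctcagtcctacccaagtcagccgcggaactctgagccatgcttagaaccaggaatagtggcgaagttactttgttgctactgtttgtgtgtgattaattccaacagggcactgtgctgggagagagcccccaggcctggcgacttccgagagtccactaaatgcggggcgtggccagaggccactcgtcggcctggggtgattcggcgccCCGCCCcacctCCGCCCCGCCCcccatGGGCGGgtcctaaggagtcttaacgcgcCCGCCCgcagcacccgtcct
The Taldo1 window held 1 GGGCGG and the Tkt window 5, of which 1 pair overlaps, while 35.7% of the 32851 mouse promoter windows of this length held at least 1. The motif TGACNNNGC, the core of the antioxidant response element, was searched on both strands and was not found in the windows of Taldo1, Tkt, Pgls, Rpia or Rpe. It was present in 12.4% of all windows, with 1 match in the G6pdx window and 1 in a Pgd window. TATAAA was found in none of the members' windows, against 13.6% of all windows. These matches describe letters in a window and are not binding sites.

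Taldo1 signal was lower in G93A-SOD1 than in wild type samples in all 3 tissues and at both ages, by 5.78- to 7.27-fold in blood, by 2.71- to 3.02-fold in spinal cord and by 1.70- to 1.78-fold in muscle. Of the 47 G93A-SOD1 arrays, 45 had less Taldo1 signal than every wild type array of the same tissue and age. None of the other measured enzymes passed the test in any of the 6 comparisons. Signals are normalized log2 intensities, each tissue normalized on its own unless stated otherwise, and a difference is the G93A-SOD1 mean minus the wild type mean.

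In blood at 70 days, Taldo1 ran from 13.11 to 14.01 with a median of 13.58 in wild type arrays. In G93A-SOD1 blood of that age it ran from 9.90 to 11.46 with a median of 10.74. The ranges did not overlap, and the brightest G93A-SOD1 array lay well under the dimmest wild type array. The difference was -2.86 (SE 0.21, 95% interval -3.29 to -2.43). At 100 days, wild type blood ran from 13.32 to 13.91 with a median of 13.75, and G93A-SOD1 blood from 10.60 to 11.80 with a median of 11.01. Again no G93A-SOD1 array reached the wild type range. The difference at this age was -2.53 (SE 0.22, 95% interval -2.97 to -2.09). Probes whose G93A-SOD1 range lay wholly below the wild type range were rare in blood, at 0.0518% of the 9646 probes tested at 70 days and 0.0311% at 100 days.

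In spinal cord at 70 days, Taldo1 ran from 10.91 to 11.36 with a median of 11.09 in wild type arrays and from 8.92 to 11.07 with a median of 9.52 in G93A-SOD1 arrays. Of the 8 G93A-SOD1 arrays, 7 lay below every wild type array, and replicate 1, at 11.07, lay within the wild type range. This array had the fewest detected probes of the tissue, 5212 against a median of 11746. The difference was -1.44 (SE 0.20, 95% interval -1.85 to -1.02) and was -1.64 without the 2 dim spinal cord arrays. At 100 days, wild type spinal cord ran from 10.65 to 11.20 with a median of 10.90, and G93A-SOD1 spinal cord from 8.81 to 9.94 with a median of 9.27. The G93A-SOD1 range lay wholly below the wild type range, which held for 0.0232% of the 12941 probes tested at this age, and for 0.0232% at 70 days. The difference was -1.59 (SE 0.21, 95% interval -2.02 to -1.17).

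The difference was smallest in the tibialis anterior muscle. At 70 days, wild type muscle ran from 10.13 to 10.54 with a median of 10.39, and G93A-SOD1 muscle from 9.27 to 9.97 with a median of 9.62. The G93A-SOD1 range lay wholly below the wild type range, which held for 0.0469% of the 10658 probes tested. The difference was -0.76 (SE 0.15, 95% interval -1.06 to -0.46). At 100 days, wild type muscle ran from 9.80 to 10.48 with a median of 10.26, and G93A-SOD1 muscle from 8.65 to 9.97 with a median of 9.41. Here 6 of 7 G93A-SOD1 arrays lay below every wild type array, and replicate 4, at 9.97, lay above the lowest wild type array. The difference was -0.83 (SE 0.16, 95% interval -1.16 to -0.51), in a comparison where 0.694% of probes had a G93A-SOD1 range wholly below the wild type range.

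**Figure D1:**
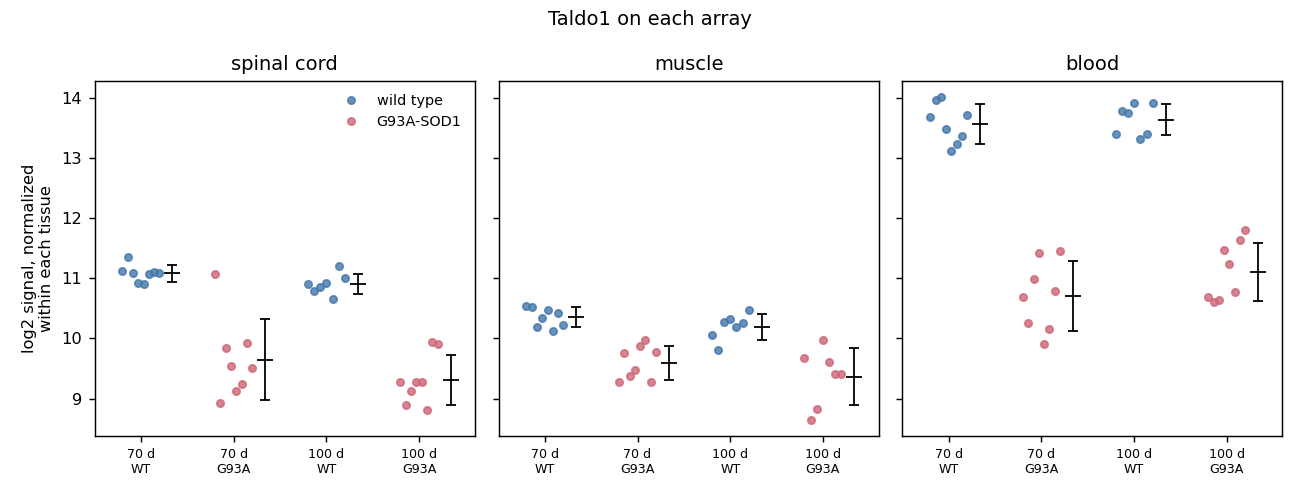
Taldo1 signal of each array (normalized log2 intensity, each tissue normalized on its own) by tissue, age and genotype; dots are arrays and black marks the mean with its SD. 45 of 47 G93A-SOD1 arrays lie below the wild type arrays of their tissue and age, with blood farthest apart. The exceptions are 1 spinal cord array of 70 days at 11.07 and 1 muscle array of 100 days at 9.97.

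The size of the Taldo1 difference was compared between ages with an interaction term in limma. This term is built from the differences for which Taldo1 was chosen, so it is described for Taldo1 with no test. From 70 to 100 days the difference moved by -0.16 in spinal cord (95% interval -0.75 to 0.44). The move was -0.07 in muscle (95% interval -0.51 to 0.37) and 0.33 in blood (95% interval -0.29 to 0.95). The intervals include 0 and allow moves of up to 0.95 in blood. Among all probes tested, limma called 0 for this term in each tissue, or 0%, while 548 probes in spinal cord, 290 in muscle and 133 in blood had an unadjusted p under 0.05. In wild type samples alone, Taldo1 differed between 100 and 70 days by -0.18 in spinal cord (95% interval -0.61 to 0.25), -0.16 in muscle (95% interval -0.47 to 0.15) and 0.07 in blood (95% interval -0.38 to 0.51). For the wild type ages, too, limma called 0 probes, or 0%, in each tissue, with 338, 1362 and 907 probes at an unadjusted p under 0.05 in spinal cord, muscle and blood.

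Tissues were compared after all 92 arrays had been normalized together, with both ages averaged. On that scale Taldo1 was lower in G93A-SOD1 mice by 3.14-fold in spinal cord (-1.65, SE 0.13), by 1.66-fold in muscle (-0.73, SE 0.13) and by 4.35-fold in blood (-2.12, SE 0.13). The blood value is closer to 0 than the -2.86 and -2.53 of blood normalized on its own. These contrasts are built from the differences for which Taldo1 was chosen and are described with no test. The spinal cord difference minus the muscle difference was -0.92 (SE 0.18), and the muscle difference minus the blood difference was 1.39 (SE 0.18). Spinal cord minus blood was 0.47 (SE 0.18), a value that moved to 1.18 with each tissue normalized on its own, to 0.96 with the authors' deposited series values and to 0.30 without the 6 arrays that stood apart. Among the other members, limma called 0 of 5 probes for spinal cord minus muscle, with 1, Rpia, at an unadjusted p under 0.05, and 3.18% of all 15119 probes called. For spinal cord minus blood it called 0 of 5, with 0 at an unadjusted p under 0.05 and 0.0331% of all probes called. The 5 include the dimmer Tkt probe, which was not detected on any muscle or blood array. For that probe these contrasts do not measure a difference between tissues.

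The order of the 12 groups by Taldo1 level, on the scale of all arrays together, started with wild type blood at 13.62 (100 days) and 13.57 (70 days). G93A-SOD1 blood followed at 11.63 (100 days) and 11.32 (70 days), lower than wild type blood and still above all spinal cord and muscle groups. Wild type spinal cord stood at 10.59 and 10.40 and wild type muscle at 10.36 and 10.21, for 70 and 100 days. The last 4 places were G93A-SOD1 muscle at 9.66 (70 days) and 9.45 (100 days) and G93A-SOD1 spinal cord at 9.02 (70 days) and 8.67 (100 days). Neighbours in this order lay within 1 pooled SD of each other, except for gaps of 1.94 between wild type and G93A-SOD1 blood, 0.73 between G93A-SOD1 blood and wild type spinal cord, 0.19 between the ages of wild type spinal cord, and 0.55 between wild type and G93A-SOD1 muscle. The order did not change without background correction, and the last 2 groups swapped places under median centring.

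Tkt, the thiamine-dependent transketolase that works beside Taldo1, was measured by a bright and a dim probe. In spinal cord at 70 days, the bright probe ran from 12.51 to 12.96 with a median of 12.72 in wild type arrays and from 12.70 to 13.36 with a median of 12.84 in G93A-SOD1 arrays. No G93A-SOD1 array lay below the wild type range, and the difference was 0.17 (95% interval -0.04 to 0.38, limma adjusted p = 0.746). At 100 days, the spinal cord values ran from 12.54 to 12.97 with a median of 12.91 in wild type and from 12.45 to 12.96 with a median of 12.80 in G93A-SOD1 arrays, and the difference was -0.07 (95% interval -0.28 to 0.14). These ranges overlapped almost fully. In blood, where Taldo1 differed most, wild type arrays of 70 days ran from 10.34 to 11.12 with a median of 10.76 and G93A-SOD1 arrays from 10.62 to 11.26 with a median of 10.79. The Tkt difference in blood was 0.06 at 70 days (95% interval -0.19 to 0.31) and 0.00 at 100 days (95% interval -0.25 to 0.26). In muscle it was 0.09 (95% interval -0.24 to 0.41) and 0.20 (95% interval -0.15 to 0.54). The dim Tkt probe was detected on 29 of 31 spinal cord arrays and was not well above background on any muscle or blood array, so it was tested in spinal cord alone, with differences of 0.01 (95% interval -0.40 to 0.42) and 0.21 (95% interval -0.22 to 0.63).

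Rpia, which interconverts ribose and ribulose phosphates, had a lower mean in G93A-SOD1 muscle at both ages, without passing the test. At 70 days, wild type muscle ran from 8.74 to 9.06 with a median of 8.83 and G93A-SOD1 muscle from 8.36 to 8.73 with a median of 8.66. All 8 G93A-SOD1 arrays lay below all 8 wild type arrays, by a narrow margin, where 0.0469% of probes tested did so. The difference was -0.25 (SE 0.11, 95% interval -0.48 to -0.02, limma adjusted p = 0.304, unadjusted p = 0.0364). At 100 days, wild type muscle ran from 8.54 to 8.92 with a median of 8.79 and G93A-SOD1 muscle from 8.02 to 8.96 with a median of 8.47. The G93A-SOD1 arrays were spread widely, 4 of 7 below every wild type array and 2 slightly above the highest one. The difference was -0.31 (SE 0.12, 95% interval -0.56 to -0.06, limma adjusted p = 0.0973). With arrays scaled by their median alone, Rpia in muscle differed by -0.17 at 70 days and -0.05 at 100 days, while the median of all probes stood at 0.06 and 0.17.

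In spinal cord, Rpia ran from 7.59 to 7.96 in wild type and from 7.09 to 7.92 in G93A-SOD1 arrays at 70 days, where it differed by -0.09 (95% interval -0.33 to 0.14). The difference at 100 days was 0.04 (95% interval -0.20 to 0.29). In blood, Rpia differed by 0.14 (95% interval -0.12 to 0.41) and 0.09 (95% interval -0.19 to 0.36), so its estimates there lay above 0. With all arrays normalized together, the Rpia difference in muscle was lower than that in blood by -0.37 (SE 0.12, limma adjusted p = 0.0383), a contrast in which 5.77% of all probes were called. This call was lost under median centring (-0.49, limma adjusted p = 0.635), with muscle and blood groups alone (limma adjusted p = 0.0502), with array weights (limma adjusted p = 0.0546) and with the authors' deposited series values (-0.24, limma adjusted p = 0.118).

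Rpe, the epimerase that makes xylulose phosphate for transketolase, was dim in blood. In blood at 70 days it was detected on 6 of 8 wild type arrays, which ran from 4.83 to 6.59 with a median of 5.65, and on 8 of 8 G93A-SOD1 arrays, which ran from 5.70 to 6.72 with a median of 6.19. The ranges overlapped, with the lowest values in wild type arrays. The difference was 0.50 (SE 0.20, 95% interval 0.08 to 0.91, limma adjusted p = 0.786, unadjusted p = 0.0205), opposite in sign to Taldo1. At 100 days in blood it was 0.06 (95% interval -0.37 to 0.49). In muscle, Rpe ran from 8.26 to 9.07 in wild type and from 8.25 to 9.04 in G93A-SOD1 arrays at 70 days, nearly the same range, with a difference of -0.12 (95% interval -0.38 to 0.14). At 100 days the muscle difference was -0.21 (95% interval -0.49 to 0.07). In spinal cord the Rpe differences were -0.23 (95% interval -0.75 to 0.29) and 0.32 (95% interval -0.22 to 0.86). The first of these includes the dim array, in which Rpe was not detected and read 4.95, below all other arrays of its group. Without the 2 dim and 3 muscle-transcript spinal cord arrays, Rpe differed by 0.12 and 0.14, so its sign at 70 days turned, and the bright Tkt probe by 0.03 and -0.07.

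Pgls, the lactonase between G6pdx and Pgd and the sole oxidative enzyme measured, was higher on average in G93A-SOD1 muscle without passing the test. At 70 days, wild type muscle ran from 9.90 to 10.34 with a median of 10.07 and G93A-SOD1 muscle from 9.85 to 10.72 with a median of 10.30. At 100 days, wild type muscle ran from 9.68 to 10.22 with a median of 9.95 and G93A-SOD1 muscle from 10.02 to 10.42 with a median of 10.23. The groups overlapped at both ages. The differences were 0.23 at 70 days (SE 0.11, 95% interval 0.00 to 0.45, limma adjusted p = 0.339) and 0.28 at 100 days (SE 0.12, 95% interval 0.04 to 0.52, limma adjusted p = 0.123). In spinal cord Pgls differed by 0.01 (95% interval -0.24 to 0.26) and 0.08 (95% interval -0.18 to 0.34), and in blood by 0.09 (95% interval -0.31 to 0.50) and 0.03 (95% interval -0.39 to 0.45).

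**Figure D2:**
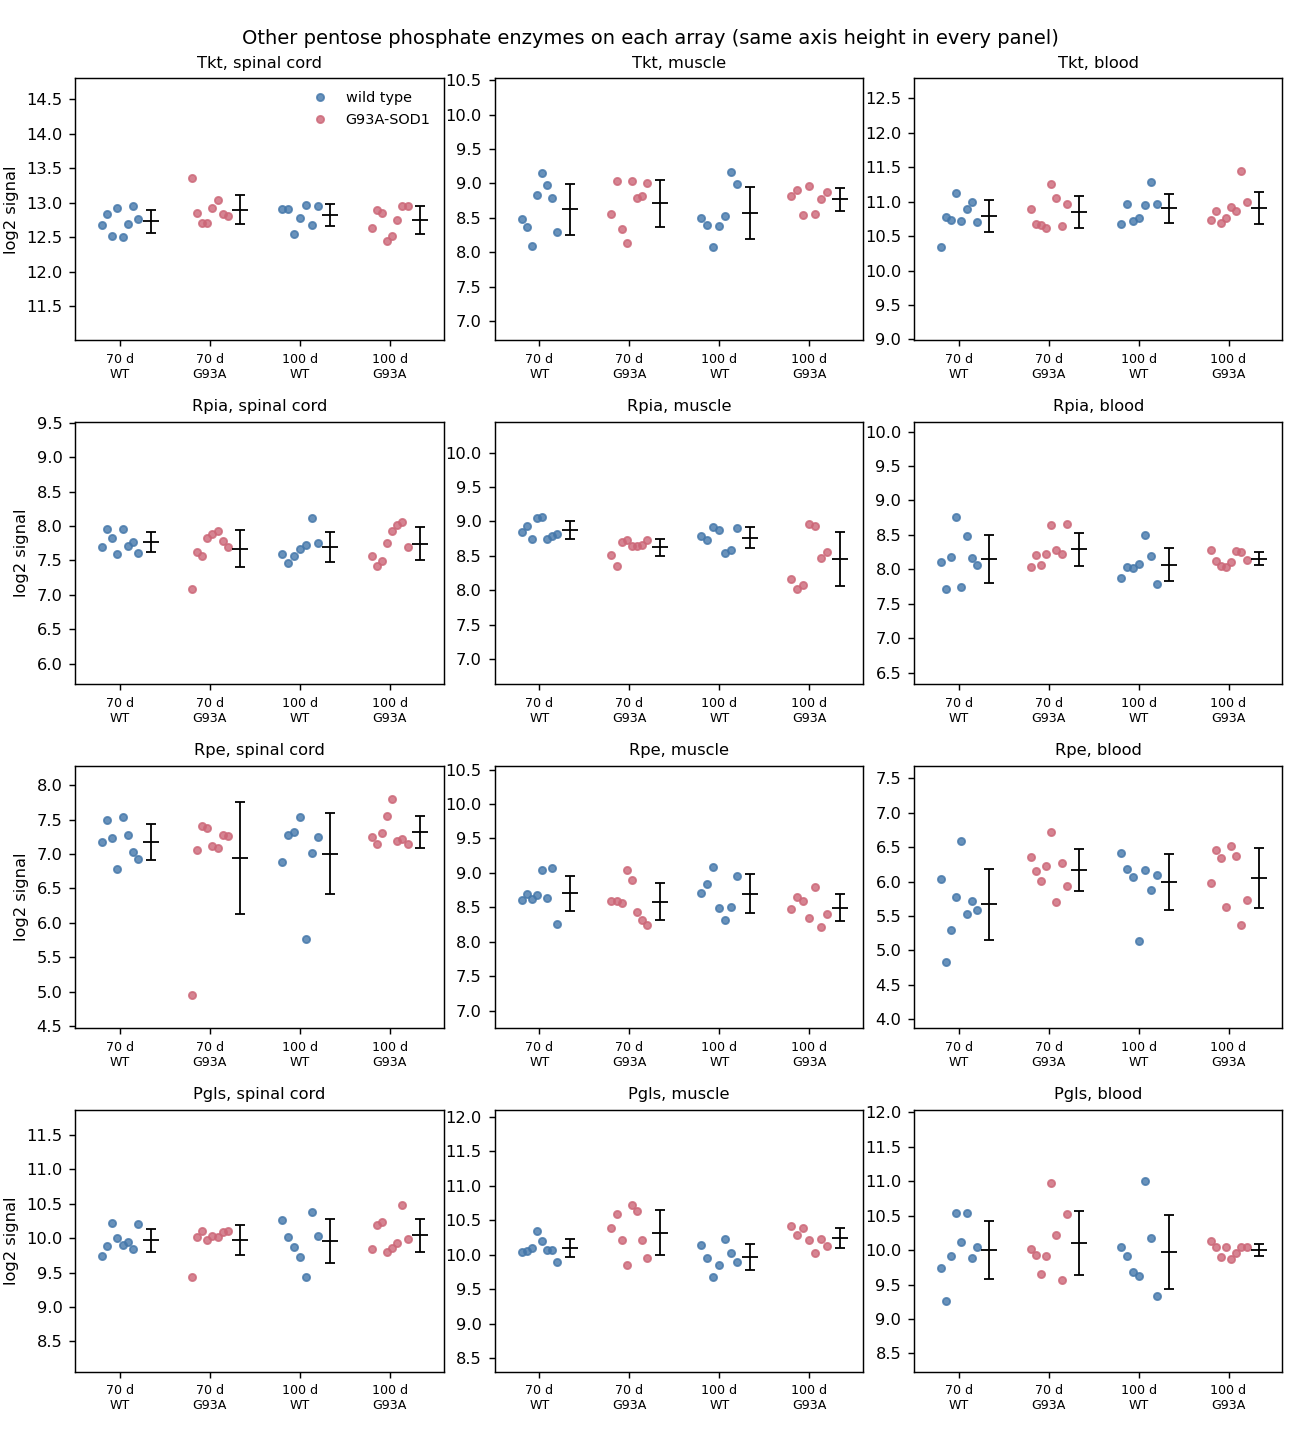
Signals of Tkt (bright probe), Rpia, Rpe and Pgls in each array (normalized log2 intensity, each tissue normalized on its own) by tissue, age and genotype; dots are arrays and black marks the mean with its SD. All panels span the same height on the log2 axis, and the genotypes overlap in each except Rpia in muscle of 70 days.

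Counted over the 6 comparisons, the 5 probes of the other members gave 26 tests, of which limma called 0 and 5 had an unadjusted p under 0.05. Over all probes, the share called by limma in either direction at 70 days was 0.0232% for spinal cord, 0.00938% for muscle and 0.0726% for blood. At 100 days it was 0.0155%, 10% and 0.0518%. Calls were frequent in muscle at 100 days and rare in the other 5 comparisons. The 5 tests with a low unadjusted p were Rpia and Pgls in muscle at both ages, in opposite directions, and Rpe in blood at 70 days. Over all probes, an unadjusted p under 0.05 was common in muscle, with 1563 of 10658 probes at 70 days and 2883 at 100 days, and less so in blood at 70 days, with 564 of 9646. The median difference of the other members was 0.12 in blood at 70 days against 0.04 over all probes, 0.04 against 0.01 at 100 days, and lay between -0.01 and 0.08 in muscle and spinal cord. The lowest bound of a 95% interval among the other members was -0.75 in spinal cord, -0.56 in muscle and -0.39 in blood, so decreases up to those sizes are allowed by the data. Bead signals can compress differences to different degrees between probes, which was not tested.

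The levels of the enzymes among wild type tissues, with all arrays normalized together, followed different orders. Taldo1 was highest in blood, at 13.59 ± 0.25 (SD, n = 15), against 10.50 ± 0.19 in spinal cord and 10.29 ± 0.19 in muscle. Tkt was highest in spinal cord, at 12.64 ± 0.22, with 11.44 ± 0.16 in blood and 8.77 ± 0.33 in muscle. For these enzymes, blood exceeded muscle by more than the spread between arrays. Rpe was highest in muscle, at 8.86 ± 0.24, and stood at 6.62 ± 0.64 in blood and 6.40 ± 0.37 in spinal cord, which did not differ beyond their spread. Rpia stood at 8.99 ± 0.27 in blood, at 8.97 ± 0.13 in muscle and lower, at 7.01 ± 0.18, in spinal cord. Pgls stood at 9.37 ± 0.27 in spinal cord, 10.06 ± 0.15 in muscle and 10.73 ± 0.40 in blood. The placing of blood depended on the scaling for Rpia and Pgls. With arrays scaled by their median alone, wild type Rpia averaged 8.82 and 8.61 in muscle against 8.05 and 8.00 in blood at 70 and 100 days. Wild type Pgls then averaged 10.07 and 9.80 in muscle against 9.86 and 9.92 in blood, so blood was no longer the highest tissue at 70 days. Bead signals of different probes are not on a common scale, so these levels compare tissues for a gene and not genes with each other.

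**Figure D3:**
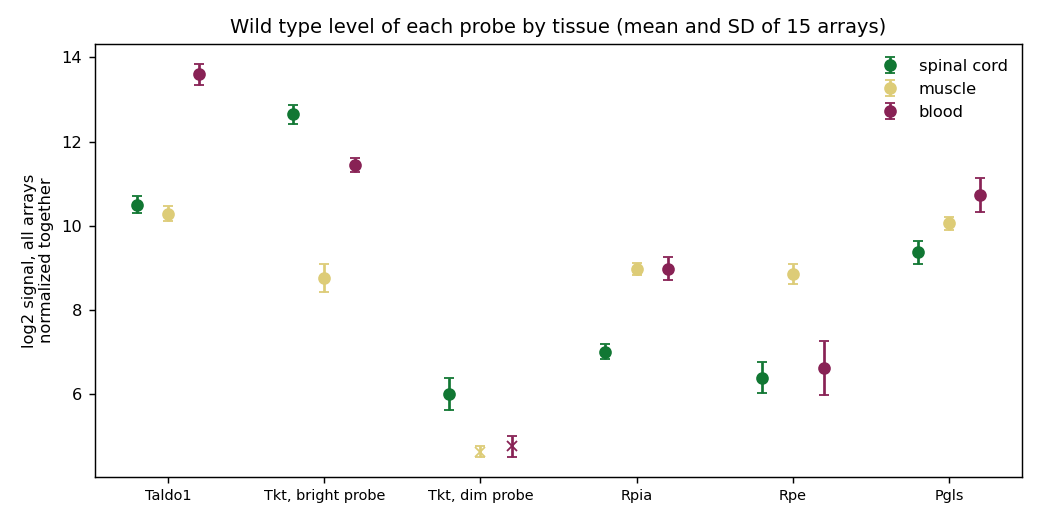
Wild type level (log2 intensity, all arrays normalized together, mean ± SD of 15 arrays) of each member probe in spinal cord, muscle and blood; crosses mark probes not detected on any array of a tissue. Taldo1 is highest in blood, Tkt in spinal cord and Rpe in muscle, while Pgls is highest in blood on this scale but not at 70 days under median centring.

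Whether the other enzymes moved with Taldo1 from array to array was examined with each group's mean removed, in 12 relations over 3 tissues, by two-sided permutation tests of 100000 resamples with Benjamini-Hochberg adjustment. In muscle, Rpia followed Taldo1 over 30 arrays with Pearson's r of 0.57 (permutation p = 0.00123, adjusted p = 0.0137) and Spearman's rho of 0.41 (permutation p = 0.0235, adjusted p = 0.107). Without the 2 arrays farthest from the Taldo1 median, r was 0.37, so the relation rested in part on those arrays. In blood, Rpe ran against Taldo1 over 31 arrays, with r of -0.52 (permutation p = 0.00228, adjusted p = 0.0137) and rho of -0.52 (permutation p = 0.00292, adjusted p = 0.035), and r was -0.47 without the 2 farthest arrays. Tkt did not pass in any tissue, with r of 0.37 in spinal cord (adjusted p = 0.1), 0.29 in muscle (adjusted p = 0.249) and -0.09 in blood (adjusted p = 0.736). In spinal cord, r for Tkt dropped to 0.06 without the 2 farthest arrays. The count depended on the scaling, since with arrays scaled by their median alone 8 of the 12 passed, all in spinal cord and muscle. On that scale Rpia in muscle still passed (r of 0.83, adjusted p = 3e-05) and Rpe in blood did not (r of -0.19, adjusted p = 0.354).

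The transcripts whose signal followed Taldo1 most closely were not pathway members. Over 92 arrays with tissue means removed, 8016 probes detected in all 3 tissues were ranked by Pearson's r with Taldo1, as a description of arrays that share the genotype groups. The highest was ILMN_2636384, a probe without a gene symbol, at 0.87. Next were Atp6v1d, a subunit of the vacuolar proton pump, at 0.65, Midn at 0.59, Lsm4, a component of the spliceosome's U6 particle, at 0.57, and Flii, an actin-binding protein, at 0.54. The lowest named probe was mouse Sod1 at -0.56, after ILMN_1238221 at -0.60 and ILMN_1233733 at -0.58. On this measure the pathway members stood at -0.03 for Tkt, -0.02 for Rpia, -0.21 for Pgls and -0.29 for Rpe. With group means removed, the highest were Mad2l1bp, Kmt5a, Yap1 and Babam1 at 0.61 each and ILMN_2615901 at 0.60, and ILMN_2636384 stood at 0.28.

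At 100 days, ILMN_2636384 ran from 11.34 to 11.91 with a median of 11.48 in wild type blood and from 10.16 to 11.02 with a median of 10.64 in G93A-SOD1 blood. In spinal cord of that age it ran from 13.06 to 13.22 with a median of 13.15 in wild type and from 12.36 to 12.88 with a median of 12.57 in G93A-SOD1 arrays. Neither pair of ranges overlapped. At that age, 0.0311% of probes in blood and 0.0232% in spinal cord had a G93A-SOD1 range wholly below the wild type range. The differences at 100 days were -0.91 in blood (SE 0.12), -0.55 in spinal cord (SE 0.09) and -0.56 in muscle (SE 0.10). The differences of Atp6v1d were -0.91 (SE 0.15) in spinal cord of 70 days and -0.76 (SE 0.15) in that of 100 days. For muscle they were -0.47 and -0.46, and for blood -0.72 and -0.82. These probes were picked by their likeness to Taldo1, so no test is given.

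At 70 days mouse Sod1 differed by -0.01 in spinal cord, 0.16 in muscle and 0.65 in blood, and at 100 days by 0.11, 0.33 and 0.44. Its probe is annotated to the mouse gene and does not check the human transgene, so the genotype labels were not checked by a transcript here.

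The genes next to Taldo1 on chromosome 7 were examined to see whether its lower signal extended along the region. The 10 genes on each side span positions 141194111 to 141754691, and 12 of these 20 had a tested probe in spinal cord, 10 in muscle and 9 in blood. For spinal cord and blood, limma called 0 of their probes at either age, with 2 of 48 tests at an unadjusted p under 0.05. Calls were rare in these comparisons, at 0.0155% to 0.0726% of all probes tested. Differences ran from -0.28 to 0.42 in spinal cord and from -0.15 to 0.43 in blood. Gatd1, the nearest gene after Taldo1, differed by -0.08 at both ages in spinal cord and by 0.18 and 0.10 in blood. In muscle at 100 days, where 10% of all probes were called, 2 of 11 neighbour probes passed. Tmem80, a transmembrane protein gene before Taldo1, was lower by -0.60 (SE 0.15, limma adjusted p = 0.0162), and 1 probe of Cd151, a tetraspanin, was higher by 0.41 (limma adjusted p = 0.0143). The other tested Cd151 probe differed by 0.68 there without passing (limma adjusted p = 0.0586). In muscle at 70 days, limma called 0 of 11 neighbour probes, with 2 at an unadjusted p under 0.05 and 0.00938% of all probes called.

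**Figure D4:**
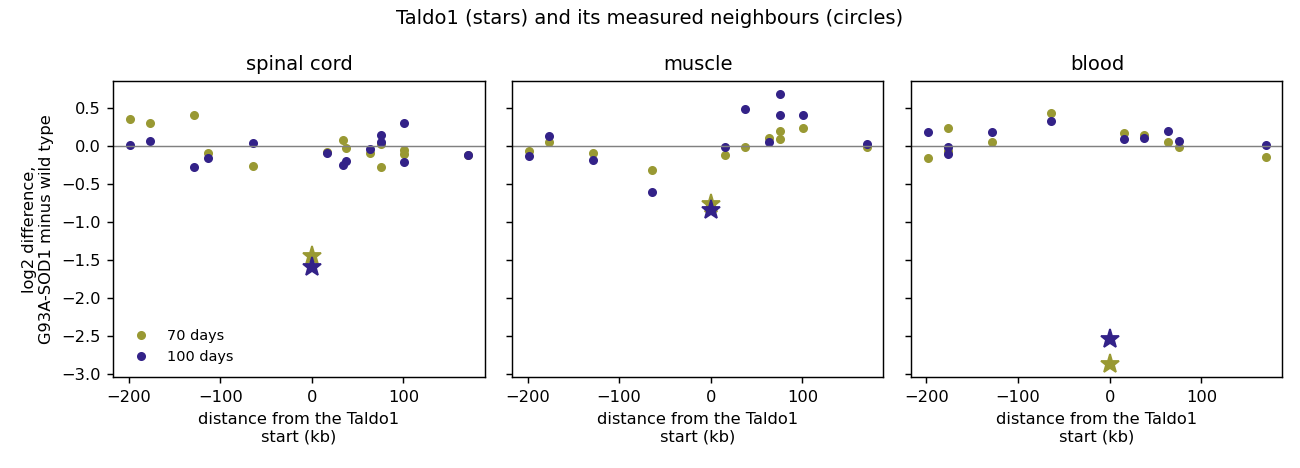
G93A-SOD1 minus wild type difference (log2) of Taldo1 (star) and of its neighbours on chromosome 7 (circles) against the distance of each gene's start from the Taldo1 start, in kb. Taldo1 stands below its neighbours in each tissue, most in blood.

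Other enzymes of pentose metabolism gave 0 limma calls in 22 tests, with 2 at an unadjusted p under 0.05. The share of all probes called was 10% in muscle at 100 days and 0.00938% to 0.0726% in the other comparisons. Of 10 further genes, H6pd, the pathway's dehydrogenase in the endoplasmic reticulum, Rbks, the ribokinase, and Prps1, which makes phosphoribosyl pyrophosphate, were tested in all 3 tissues, and Prps2 in spinal cord and blood. H6pd differed by -0.10 to 0.16 over the 6 comparisons. Rbks was lower by -0.49 in spinal cord at 70 days (limma adjusted p = 0.746) and by -0.40 in muscle at 100 days (limma adjusted p = 0.109), without passing. It differed by 0.36 in spinal cord at 100 days, by -0.17 in muscle at 70 days, and by 0.24 and -0.12 in blood at 70 and 100 days. Tktl1, Tktl2, Pgm2, Shpk and Prps1l1 were not detected on any array, and Dera was detected on 2 muscle arrays.

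Glycolysis, the NADPH-producing enzymes outside the pathway, the enzymes that spend NADPH on glutathione and thioredoxin, and targets of the oxidative stress regulator NRF2 were counted as lists. Outside muscle of 100 days, limma called 0 probes of any of these lists in 236 tests, 24 of them at an unadjusted p under 0.05, with a gene counted again in each list that holds it and backgrounds of 0.00938% to 0.0726%. In muscle at 100 days, where 4.47% of probes were called lower and 5.58% higher, 2 of 21 glycolysis probes were called lower and 0 higher, and their median difference was -0.15 against -0.02 over all probes. Tigar, a fructose bisphosphatase known to direct glucose into the pentose phosphate pathway, ran from 7.53 to 8.31 in wild type and from 5.19 to 7.24 in G93A-SOD1 muscle. The G93A-SOD1 range lay wholly below the wild type range, as it did for 0.694% of all probes tested there. Tigar fell by 1.63 on the log2 scale (SE 0.36, limma adjusted p = 0.0113). Pfkm, the muscle phosphofructokinase, fell by 0.31 (SE 0.10, limma adjusted p = 0.0404).

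Of 14 NRF2 target probes in muscle at 100 days, 5 were called higher and 1 lower, with a median difference of 0.18. Hmox1, heme oxygenase, ran from 6.31 to 7.42 in wild type and from 7.45 to 8.83 in G93A-SOD1 muscle. It rose by 1.28 (SE 0.24, limma adjusted p = 0.00489). All 3 probes of Srxn1, which restores oxidized peroxiredoxins, were called higher, by 0.81, 0.92 and 1.10. Ftl1, the ferritin light chain, rose by 0.72 (limma adjusted p = 0.0251). Nqo1, a quinone reductase that can use NADPH, fell by 0.51 (limma adjusted p = 0.0492). Limma called 0 of the 5 probes for other NADPH sources and 0 of the 12 for NADPH users there, with 3 of these 17 at an unadjusted p under 0.05, against 2883 of all 10658 probes. Taldo1 and Tkt, which are themselves known NRF2 targets, were not counted in that list.

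Array quality and cell markers were set beside these results. Detected probes per array ranged from 5212 to 13428 in spinal cord, 8512 to 11577 in muscle and 6809 to 9691 in blood. Without the 5 spinal cord arrays that stood apart, Taldo1 differed by -1.67 at 70 days and -1.72 at 100 days in that tissue. The tissues carried their defining markers, with mean levels per array of 12.47 to 13.11 for oligodendrocyte genes in spinal cord, 13.59 to 14.62 for fast fibre genes in muscle and 10.27 to 11.36 for erythroid genes in blood. For spinal cord and blood, limma called 0 markers of the 14 cell type lists in 182 tests, 15 of them at an unadjusted p under 0.05. Among all probes of these comparisons, only 0.0155% to 0.0726% were called. Markers of microglia and macrophages had a median difference of -0.92 in blood at 70 days, with levels of 4.98 to 7.34 in wild type and 4.88 to 6.40 in G93A-SOD1 arrays, while the erythroid list had one of -0.09. At 100 days it was -0.24 in blood. In spinal cord these microglia and macrophage markers had median differences of 0.60 at 70 days, with levels of 6.96 to 7.46 in wild type and 7.11 to 8.48 in G93A-SOD1 arrays, and of 0.54 at 100 days, with levels of 7.14 to 7.62 and 7.27 to 8.41. The fast fibre list had a median difference of -2.02 in spinal cord at 70 days, with levels of 6.63 to 13.12 in wild type and 5.47 to 7.69 in G93A-SOD1 arrays. In muscle at 100 days, 4.47% of all probes were called lower and 5.58% higher. There, 2 of 4 slow fibre markers, 2 of 4 microglia and macrophage markers and 1 of 3 neutrophil markers were called higher. Called lower were 1 of 6 fast fibre and 1 of 2 oligodendrocyte markers. Slow fibre levels there ran from 8.20 to 10.76 in wild type and from 9.94 to 12.91 in G93A-SOD1 arrays, and microglia and macrophage levels from 5.09 to 5.56 and from 5.57 to 6.21. Their part in the Taldo1 difference was not tested.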

How the data were processed

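RNA of 92 samples was hybridised to Illumina mouse bead arrays. Per the file headers, the deposited table holds non-normalized bead intensity values and detection p-values for each array, and the authors' series matrix gives a second set of values, which were found to be on a log2 scale with their centring not stated in the sources used here. A probe was named through the platform annotation, with 20984 of 24613 probes carrying 1 symbol and 20968 matched to RefSeq by gene ID. 7 lines without a probe identifier, 0.00539% of the signal, were left out, and 0 columns of per-sample values were left unmapped.

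From the intensities, signals were background-corrected, quantile-normalized and log2-transformed with neqc (limma 3.58.1 in R 4.3.3, offset 16, detection p-values standing in for control probes), each tissue on its own, or all arrays together for levels and contrasts across tissues. Probes with a detection p under 0.05 on at least 7 arrays of a tissue were kept. One limma model per tissue held its 4 groups, and p-values were adjusted over all probes tested by the Benjamini-Hochberg method at 0.05, probe by probe. The number of arrays limits the precision. Members, lists and tests were chosen with earlier results of these data known. Transcripts ranked by likeness to Taldo1 were the 5 highest and 3 lowest by Pearson's r. Within the glycolysis, NADPH and NRF2 lists, the genes named with a result are those called by limma. The further pentose enzymes were named whether called or not. The 14 cell type lists are given by counts, levels and medians. Replicates correlated with Spearman's rho from 0.58 to 0.963, and 0 pairs were identical. Alternatives were another background correction, scaling, detection filter, variance model, array weights, arrays left out and the deposited series values. The scripts were tested on simulated data.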

Additional observations from a re-analysis of the deposited data

Results flagged for a closer look

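Among the member probes, 4 of 57 groups held an array whose gap to its group exceeded Dixon's critical value, where chance gives about 1 in 20 groups. In G93A-SOD1 spinal cord of 70 days, replicate 1 read 11.07 for Taldo1, with the other 7 arrays between 8.92 and 9.92, and 9.44 for Pgls, with the others between 9.97 and 10.11. This is the array with 5212 detected probes. In wild type spinal cord of 70 days, replicate 2 read 11.36 for Taldo1, with the others between 10.91 and 11.12. In G93A-SOD1 blood of 100 days, replicate 7 read 11.44 for the bright Tkt probe, with the others between 10.69 and 10.99.

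Between tissues, the Taldo1 genotype difference was -0.92 for spinal cord minus muscle and 1.39 for muscle minus blood. These Taldo1 values come from the differences for which the gene was chosen and are described with no test. For Rpia, muscle minus blood was -0.37 and was called by limma. The Rpia call was lost under median centring (limma adjusted p = 0.635), with muscle and blood groups alone (0.0502), with array weights (0.0546) and with the series values (0.118).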

How the results depend on the processing

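The Taldo1 difference kept its direction under every alternative run and moved by less than the spread between replicates in 36 of 42 of them. The exceptions were -1.96 at 70 days and -1.26 at 100 days in spinal cord under median centring, -2.25 and -1.99 in blood with all arrays normalized together, and -2.39 and -2.13 in blood with the deposited series values, for 70 and 100 days. Median centring moved the median difference of all probes at 70 days to -0.32 in spinal cord, 0.06 in muscle and 0.26 in blood, at 100 days to 0.23, 0.17 and 0.11, and left 27 calls in muscle at 100 days in place of 1071. Counts of called members did not change in 160 of 167 alternatives over 15 results. For the contrast of spinal cord with muscle, array weights gave 2 called members in place of 1. For spinal cord with blood, normalizing each tissue on its own gave 1 and the series values 1, in place of 0. For muscle with blood, median centring, the groups of these tissues alone, array weights and the series values gave 1 each in place of 2. Counts for the contrasts between tissues and between ages include Taldo1, and those for the 6 genotype comparisons leave it out. The Taldo1 contrasts between tissues are built from the differences for which it was chosen, so its calls are not read as tests. In the main run, the 1 call for spinal cord with muscle was Taldo1, as was 1 of the 2 for muscle with blood. The relations with Taldo1 that passed numbered 8 under median centring in place of 2, and Rpe in blood was no longer among them. Same-numbered arrays of both genotypes deviated together, with a correlation over 0.1, in 7 of 15 pairs in spinal cord, 8 of 15 in muscle and 12 of 15 in blood, and arrays of different tissues in 14 of 30 pairs for spinal cord and muscle, 6 of 31 for spinal cord and blood and 4 of 30 for muscle and blood. As not every pair did, the numbers were not taken to pair samples. These values do not settle whether they do, since no arrays of unlike number are set beside them. The replicate number as a block left 0 other members called in each of the 6 genotype comparisons. The cause of these shifts was not tested. Each enzyme but Tkt rested on 1 probe, and where the Taldo1 probe lies in its transcript was not analysed here, so less transcript and a change in the probed stretch alone cannot be told apart. Dim probes such as Rpe in blood limit what can be seen.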
